A study of Mus musculus with 12 samples.

Results

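Lrat and 8 further genes of retinoid storage, transport, oxidation and response were followed through pancreatic ductal adenocarcinomas of mice. The genes were chosen by symbol (Lrat, Rbp4, Stra6, Aldh1a1, Aldh1a2, Aldh1a3, Rarb, Crabp1 and Crabp2), and they are 9 of the 52636 genes in the files. Lrat was picked because it had differed between untreated heterozygous and untreated wild-type tumours, so the members' values in that contrast, and every Lrat value that uses those libraries, are descriptions with no test. RNA was measured in 12 tumours of KPC mice, a genetic model in which a Cre recombinase switches on tumour-driving alleles in the pancreas, on a mixed background given as C57BL/6; 129. The groups were gemcitabine-treated Cdh11 +/- mice, gemcitabine-treated Cdh11 +/+ mice, untreated Cdh11 +/- mice and untreated Cdh11 +/+ mice, with 3 mice in each. The Cdh11 product, cadherin 11, joins fibroblasts to their neighbours, and gemcitabine is a nucleoside analogue and a common drug for this cancer. The sources used here do not give the kind of Cdh11 allele, the Cre driver, the age of the mice, the dose or the schedule. Each library is 1 mouse and a whole tumour piece, so the KPC alleles are shared by all groups and no group is free of tumour.

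Pancreatic stellate cells, like those of the liver, hold vitamin A in their resting state as retinyl esters in lipid droplets, and they lose these droplets when they turn into matrix-producing myofibroblasts. The enzyme LRAT makes the esters from retinol. Retinol reaches cells on the plasma carrier RBP4 and can enter through its receptor STRA6. Inside cells retinol is oxidised to retinal and then, by the ALDH1A enzymes, to retinoic acid, which binds nuclear receptors such as RARB and is shuttled by the CRABP proteins.

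The retinoic acid receptors bind, with their RXR partners, pairs of a short hexamer, and the Rarb promoter is the textbook example of such a pair. The 250 bases upstream of the RefSeq start were read on GRCm38.p6 for Lrat, the gene the values below turn on, and for Rarb and Cyp26a1, the retinoid genes whose window held the pair. Capitals mark 2 direct copies of a hexamer with 5 bases between them, on either strand. The hexamer could be AGGTCA, the related form GGGTCA, the form AGTTCA that the Rarb promoter holds, or its other form there, which is GGTTCA.
Lrat, chr3:82903975-82904224, minus strand: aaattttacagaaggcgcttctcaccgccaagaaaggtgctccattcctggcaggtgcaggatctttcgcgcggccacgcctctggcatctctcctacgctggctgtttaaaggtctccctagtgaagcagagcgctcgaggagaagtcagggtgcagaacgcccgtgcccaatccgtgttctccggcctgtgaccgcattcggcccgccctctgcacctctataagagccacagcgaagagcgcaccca
Rarb, chr14:16575477-16575726, minus strand: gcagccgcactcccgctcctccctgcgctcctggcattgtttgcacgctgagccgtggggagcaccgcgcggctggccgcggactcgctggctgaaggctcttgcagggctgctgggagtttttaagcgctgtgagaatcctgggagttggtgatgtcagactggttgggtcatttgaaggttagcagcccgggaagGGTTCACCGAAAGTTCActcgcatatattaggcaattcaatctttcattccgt
Cyp26a1, chr19:37697558-37697807, plus strand: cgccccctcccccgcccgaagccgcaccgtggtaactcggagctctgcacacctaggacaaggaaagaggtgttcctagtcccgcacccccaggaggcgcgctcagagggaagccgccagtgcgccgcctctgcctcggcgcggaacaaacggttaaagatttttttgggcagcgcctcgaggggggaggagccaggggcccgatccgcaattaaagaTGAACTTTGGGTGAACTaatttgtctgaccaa
The pair lay at bases -53 to -37 from the start in Rarb and at -32 to -16 in Cyp26a1, the gene of a retinoic acid hydroxylase. Of all 32851 promoter windows in the table, 29 held it (0.0883%). The Rarb match was fixed by this choice of hexamers, since both forms searched after AGGTCA and GGGTCA come from its promoter. Windows were found for 58 of the 80 retinoid genes listed, and Rarb and Cyp26a1 were those with the pair. Among the 9 members 7 had a window, all but Aldh1a3 and Crabp2. A match is a description of letters and not of binding.

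The library totals lay between 39388328 and 56559413 expected counts (median 45785246). Levels are given as counts per 1000000 counts of the library (CPM), and ± beside a CPM is the SD over 3 mice. Cdh11 lay at 109, 154 and 78.6 CPM in treated heterozygous tumours and at 144, 57.3 and 117 CPM in treated wild-type tumours, so that the treated groups overlapped, and they are named here by their labels. It lay at 147.2, 110.0 and 75.8 CPM in untreated heterozygous tumours, below the 225, 302 and 148.1 CPM of untreated wild-type tumours. The nearest values of these groups, 147.2 and 148.1 CPM, almost met, and the genotype labels were not tested by these levels. Xist, which coats the silenced X chromosome of females, lay between 1220 and 3395 CPM in 6 libraries, and these were 0 of the treated heterozygous, 3 of the treated wild-type, 1 of the untreated heterozygous and 2 of the untreated wild-type tumours. Among treated mice genotype and sex-chromosome genes therefore cannot be told apart.

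Storage of retinyl esters, which LRAT makes, is known from stellate cells, whose markers were therefore read beside the members. The 13 stellate cell markers summed to between 941 and 1595 CPM in treated heterozygous, 855 and 1421 CPM in treated wild-type, 494 and 1139 CPM in untreated heterozygous and 1207 and 2460 CPM in untreated wild-type tumours. The most abundant were Vim (189 to 1884 CPM over the 12 libraries), Pdgfrb (73.5 to 345 CPM) and Nes (15.8 to 328 CPM), which other mesenchymal cells express as well. Of the more selective markers, Cygb (22.1 to 147 CPM), Des (6.93 to 64.9 CPM), Hand2 (1.198 to 10.8 CPM) and Reln (1.24 to 39.6 CPM) had counts in every library, Gfap reached at most 0.47 CPM and Lhx2 had no count in 8 of 12 libraries. Over the 12 libraries log2 CPM of Lrat had a Pearson r of 0.73 with the summed list, and of 0.64 after removal of the group means. Vim weighs heavily in that sum, with 1884 of 2460 CPM in untreated wild-type mouse 3. Lrat also had r of 0.60 with a list of activated fibroblast markers and 0.57 with a list of islet markers. After removal of the group means these were -0.28 and -0.24. For the other 7 tested members r with the stellate list lay between -0.39 for Aldh1a3 and 0.45 for Aldh1a2. These values describe 12 libraries that share their groups, and Lrat alone among the members stood above 0.5 with the stellate list. They include the untreated libraries that led to the choice of Lrat, and the stellate sums of those groups were separate as well. The place of Lrat among the members is therefore a description. In whole tumours, fewer cells of a type and less RNA per cell cannot be told apart.

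Per kilobase of exon the members covered a wide range of levels. Aldh1a3 stood first with 28.6 ± 27.3 CPM per kb (SD over 12 libraries), followed by Aldh1a2 with 26.2 ± 18.2 CPM per kb. Stra6 had 14.2 ± 11.5, Aldh1a1 8.58 ± 5.0 and Rbp4 8.32 ± 5.72 CPM per kb. Neighbours among these 5 genes did not differ beyond their spread. Rarb (1.35 ± 0.397 CPM per kb), Crabp2 (1.00 ± 1.39 CPM per kb) and Lrat (0.632 ± 0.632 CPM per kb) were lower, and Crabp1 was at 0.0513 ± 0.0594 CPM per kb. The ranges of Rarb, Crabp2 and Lrat overlapped as well, so their order is not settled by these libraries.

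**Figure D1:**
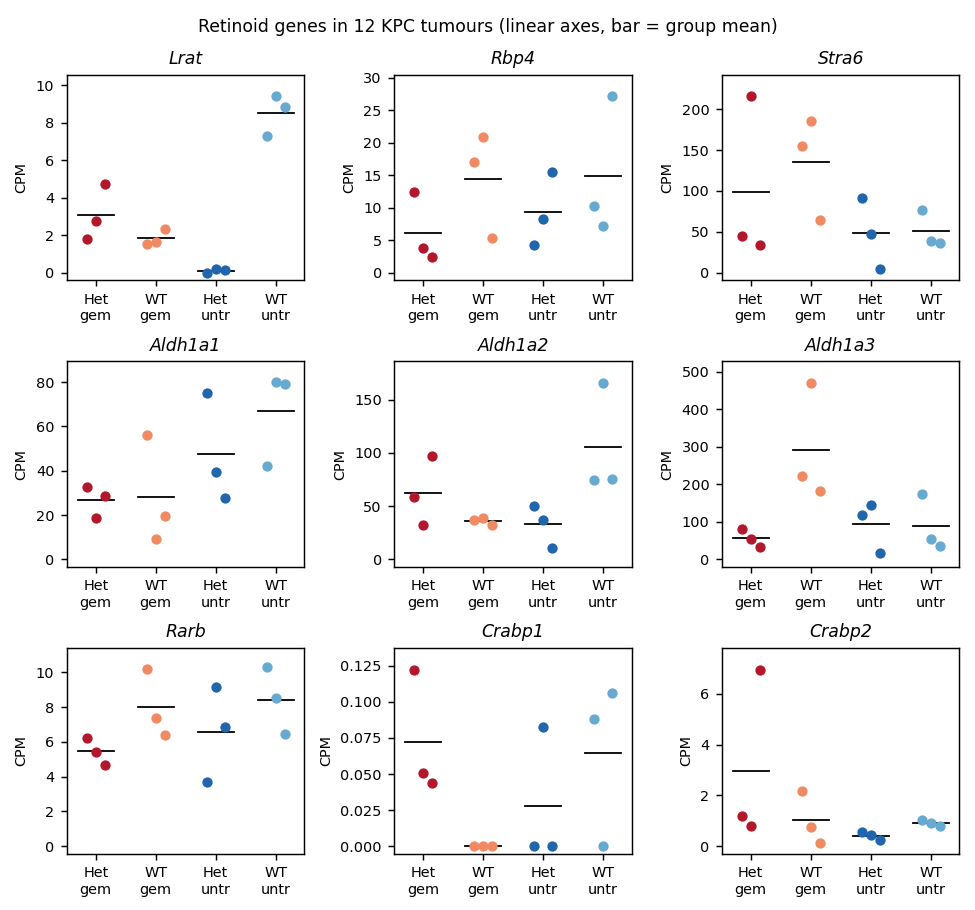
Level in CPM (linear axes, scaled per gene) of the 9 retinoid genes in 12 tumours; points are mice, bars are group means of 3, Het is Cdh11 +/-, WT is Cdh11 +/+, gem is gemcitabine and untr is untreated. Lrat lay between 7.28 and 9.40 CPM in the 3 untreated wild-type tumours and at or below 4.71 CPM in the other 9.

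Storage is represented by Lrat, on chromosome 3 (82892579 to 82903973, minus strand, GRCm38). It had 88, 109 and 215 counts in treated heterozygous tumours and 68, 77 and 103 counts in treated wild-type tumours. Among untreated mice it had 0, 8 and 6 counts in heterozygous tumours, against 330, 382 and 499 counts in wild-type tumours. The low end was thus the untreated heterozygous group, where 1 of 3 libraries held no Lrat count, which allows up to 3 counts in that library by counting error alone.

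As levels, Lrat averaged 3.09 ± 1.49 CPM in treated heterozygous and 1.83 ± 0.452 CPM in treated wild-type tumours (n = 3 each). The averages were 0.096 ± 0.0858 CPM in untreated heterozygous and 8.50 ± 1.10 CPM in untreated wild-type tumours. From high to low the order was untreated wild-type, treated heterozygous, treated wild-type and untreated heterozygous. The middle pair overlapped, and every other pair of neighbours in that order was separate.

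In the test that the choice of the gene left free, heterozygous against wild-type under gemcitabine, Lrat had a log2 fold change of 0.59 ± 0.60 (SE), with a 95% interval of -0.74 to 1.91 and an edgeR adjusted p of 0.918. That interval runs from 0.598-fold to 3.77-fold. Its direction is not settled, since the interval holds values of both signs. With a covariate for the Y-linked genes the log2 value was -0.34. Those genes summed to 282 to 506 CPM in treated heterozygous and 0.5145 to 0.729 CPM in treated wild-type tumours. The covariate was thus set largely by the untreated libraries, which led to the choice of Lrat, so -0.34 is a description. Each further Lrat contrast is descriptive: -6.43 ± 0.79 for heterozygous minus wild-type without drug, 4.84 ± 0.74 for gemcitabine minus untreated in heterozygous mice and -2.17 ± 0.62 for gemcitabine minus untreated in wild-type mice, all on the log2 scale. Lrat thus stood 28.6-fold higher with gemcitabine in heterozygous and 4.51-fold lower with gemcitabine in wild-type tumours, without a test of either.

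The values of Lrat were also set against its marker lists, as a description of the libraries that led to its choice. Per 1000 CPM of the summed stellate list, Lrat had 1.501 to 2.95 CPM in treated heterozygous and 1.06 to 2.75 CPM in treated wild-type tumours. It had 0 to 0.160 CPM in untreated heterozygous and 3.59 to 6.03 CPM in untreated wild-type tumours on that scale. The activated fibroblast markers moved with the untreated contrast too, at 4422 to 6865 CPM in heterozygous and 11440 to 15900 CPM in wild-type tumours, and islet markers at 0.307 to 4.34 CPM and 16.5 to 264.9 CPM in the same groups. Per 1000 CPM of the fibroblast list, Lrat had 0 to 0.0277 CPM in untreated heterozygous and 0.555 to 0.641 CPM in untreated wild-type tumours. Acinar markers lay at 6.67 to 33.8 CPM and 9.62 to 446 CPM, and endothelial markers at 171 to 271 CPM and 232 to 449.6 CPM, in heterozygous and wild-type tumours without drug. In heterozygous tumours 5 of 12 tested stellate, 11 of 12 fibroblast and 8 of 9 islet markers were lower without overlap in that contrast. So were 8 of 10 acinar and 3 of 6 endothelial markers, and 0 markers of these lists were higher without overlap. Over all genes tested 8.41% were lower and 7.36% higher without overlap. The part of these cell types in the Lrat difference was not tested.

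The antisense gene Rbm46os lies across from Lrat on the opposite strand and shares no exonic base with it. It had 9, 6 and 9 counts in treated heterozygous, 10, 2 and 4 in treated wild-type, 2, 0 and 0 in untreated heterozygous and 10, 16 and 16 counts in untreated wild-type tumours. The untreated groups were separate for Rbm46os as well. The sources used here do not say whether strand was used in counting.

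Transport is represented by Rbp4, the plasma carrier of retinol, made mainly by hepatocytes, and by Stra6, the membrane receptor of retinol-bound RBP4. Rbp4 (chromosome 19, 38116629 to 38125281, minus strand) had 12.4, 3.76 and 2.32 CPM in treated heterozygous tumours and 17.0, 20.8 and 5.36 CPM in treated wild-type tumours. It had 4.18, 8.18 and 15.4 CPM in untreated heterozygous and 10.2, 7.14 and 27.3 CPM in untreated wild-type tumours. All 4 groups overlapped. Under gemcitabine the genotype difference was -1.33 ± 0.79 on the log2 scale (edgeR adjusted p = 0.791), and the gemcitabine effects were -0.63 ± 0.78 in heterozygous (adjusted p = 0.875) and -0.07 ± 0.78 in wild-type mice (adjusted p = 0.987). With single libraries left out, the first of these ranged from -2.43 to -0.91 and the second from -1.73 to -0.096.

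The 12 hepatocyte markers, which would come with liver tissue, summed to 4.84 to 21.4 CPM in treated heterozygous, 4.20 to 131 CPM in treated wild-type, 2.96 to 9.46 CPM in untreated heterozygous and 8.81 to 20.4 CPM in untreated wild-type tumours. Alb reached at most 8.50 CPM, and Apoc3 had no count in 9 of 12 libraries. The r of Rbp4 with this list was 0.23 over the 12 libraries. The highest hepatocyte sum was that of treated wild-type mouse 1, with 122 CPM of Apoa1, a gene that intestine expresses as well. Intestinal markers summed to 473 CPM in that 1 tumour, against 95.8 and 144.6 CPM in the other treated wild-type tumours.

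Stra6 (chromosome 9, 58063788 to 58153996, plus strand) had 45.3, 216 and 33.8 CPM in treated heterozygous tumours and 156, 186 and 64.1 CPM in treated wild-type tumours. Without drug it had 91.6, 47.5 and 4.74 CPM in heterozygous and 76.8, 38.2 and 36.4 CPM in wild-type tumours. One treated heterozygous tumour had the highest Stra6 level of the 12, and 1 untreated heterozygous tumour the lowest.

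The gemcitabine effect on Stra6 was 0.90 ± 0.91 in heterozygous (edgeR adjusted p = 0.831) and 1.47 ± 0.92 in wild-type mice (adjusted p = 0.665) on the log2 scale. The first of these values had the opposite sign, -0.36, without treated heterozygous mouse 2. Under gemcitabine heterozygous minus wild-type was -0.63 ± 0.90 (adjusted p = 0.949), and it was 0.54 with a covariate for the Y-linked genes.

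Oxidation of retinal to retinoic acid is carried by 3 sister enzymes. Aldh1a1 (chromosome 19, 20492715 to 20643465, plus strand) had 32.7, 18.8 and 28.4 CPM in treated heterozygous and 56.2, 9.20 and 19.5 CPM in treated wild-type tumours. It had 74.9, 39.6 and 27.9 CPM in untreated heterozygous and 42.0, 80.0 and 79.1 CPM in untreated wild-type tumours. Mean levels were lower with gemcitabine in both genotypes, with overlap in each. The log2 differences were -0.93 ± 0.57 in heterozygous (edgeR adjusted p = 0.699) and -1.25 ± 0.58 in wild-type mice (adjusted p = 0.583), and neither passed.

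Aldh1a2 (chromosome 9, 71215789 to 71296243, plus strand), the form known from embryonic mesoderm and from mesothelial and stromal cells, had 58.7, 32.3 and 97.4 CPM in treated heterozygous tumours and 37.5, 38.5 and 32.4 CPM in treated wild-type tumours. It had 50.2, 37.1 and 11.2 CPM in untreated heterozygous and 74.2, 166 and 75.4 CPM in untreated wild-type tumours. Its group means had the same order as those of Lrat, with untreated wild-type tumours on top and separate from the untreated heterozygous and the treated wild-type group.

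On the log2 scale Aldh1a2 differed by 0.82 ± 0.52 between gemcitabine-treated and untreated heterozygous tumours (edgeR adjusted p = 0.706) and by -1.48 ± 0.53 in wild-type mice (adjusted p = 0.559). The difference of these gemcitabine effects was 2.30 ± 0.74 (edgeR adjusted p = 0.277) and did not pass over all genes. The genotype difference was 0.65 ± 0.52 under gemcitabine (adjusted p = 0.871) and, as a description, -1.65 ± 0.53 without drug. Per 1000 CPM of the activated fibroblast list Aldh1a2 had 4.34 to 19.8 CPM in treated heterozygous, 2.46 to 5.73 CPM in treated wild-type, 2.52 to 9.06 CPM in untreated heterozygous and 4.74 to 11.3 CPM in untreated wild-type tumours. On that scale the untreated groups overlapped.

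Aldh1a3 (chromosome 7, 66390890 to 66427517, minus strand), the form known from epithelia, had 79.7, 55.2 and 32.2 CPM in treated heterozygous tumours, against 222, 470.1 and 183 CPM in treated wild-type tumours. It had 119, 145 and 16.8 CPM in untreated heterozygous and 174, 54.4 and 35.5 CPM in untreated wild-type tumours. The treated wild-type group lay above all 9 other libraries.

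Under gemcitabine the genotype difference of Aldh1a3 was -2.53 ± 0.81 on the log2 scale, or 5.79-fold lower in heterozygous tumours, with a 95% interval of -4.32 to -0.75. Its edgeR adjusted p of 0.546 was the smallest among the members in that contrast and did not pass. With DESeq2 the adjusted p was 0.0554, the smallest of any member under any alternative. Gemcitabine minus untreated was -0.85 ± 0.77 in heterozygous (adjusted p = 0.806) and 1.80 ± 0.79 in wild-type mice (adjusted p = 0.575), and the difference of these effects was -2.65 ± 1.10 (adjusted p = 0.355).

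Epithelial markers were read beside this gene. The 10 duct and carcinoma markers summed to 3725 to 4914 CPM in treated heterozygous and 4446 to 8576 CPM in treated wild-type tumours. These ranges overlapped. In heterozygous tumours 3 of the 10 were lower without overlap, against 6.59% of all genes. Per 1000 CPM of that list Aldh1a3 had 8.63 to 16.2 CPM in treated heterozygous and 21.4 to 84.9 CPM in treated wild-type tumours, which were still separate. Over the 12 libraries its r with that list was 0.35, and -0.064 after removal of the group means. With a list of mesothelium markers r was 0.67, and 0.74 after that removal. With the retinol and retinal redox enzymes it was 0.66, and 0.62 after that removal. All 3 treated wild-type tumours were Xist-high and all 3 treated heterozygous tumours were not, so sex chromosomes and genotype cannot be told apart here. A short predicted gene, Gm47551, matched Aldh1a3 at 95.8% over 166 bases, so a few reads could have been divided between them.

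Stra6 and Aldh1a3 were the members whose levels were most alike. Their log2 CPM had a Pearson r of 0.75 and a Spearman rho of 0.74 over 12 libraries, and r was 0.78 after removal of the group means. Treated heterozygous mouse 2 was the tumour furthest from the common trend, with 216 CPM of Stra6 and 55.2 CPM of Aldh1a3. Rbp4 and Rarb came next with r of 0.64, and Lrat and Aldh1a2 followed with 0.60. For Lrat and Aldh1a2 r was -0.21 after removal of the group means.

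**Figure D2:**
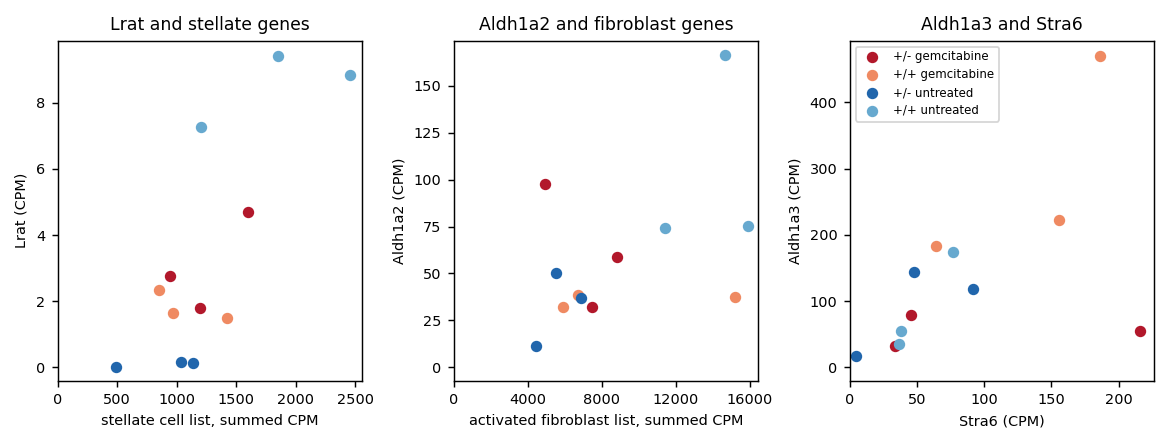
Levels in CPM of Lrat against the summed stellate cell list, of Aldh1a2 against the summed activated fibroblast list, and of Aldh1a3 against Stra6; points are the 12 tumours coloured by group. Untreated heterozygous tumours had 0 to 0.165 CPM of Lrat at 494 to 1139 CPM of stellate markers, and treated heterozygous mouse 2 lay apart with 216 CPM of Stra6.

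Response is represented by Rarb, a retinoic acid receptor that is itself a direct target of retinoic acid through the repeat shown above. Rarb (chromosome 14, 16430839 to 16819156, minus strand) had 6.24, 5.43 and 4.67 CPM in treated heterozygous tumours, just below the 10.2, 7.40 and 6.41 CPM of treated wild-type tumours. It had 3.70, 9.17 and 6.85 CPM in untreated heterozygous and 10.3, 8.52 and 6.47 CPM in untreated wild-type tumours. Relative to its mean, Rarb varied least of the members from library to library.

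Under gemcitabine heterozygous minus wild-type was -0.68 ± 0.34 for Rarb (edgeR adjusted p = 0.711), with a 95% interval of -1.44 to 0.07. The gemcitabine effects were -0.37 ± 0.34 in heterozygous (adjusted p = 0.813) and -0.04 ± 0.34 in wild-type mice (adjusted p = 0.983). Rarb shares 1793 exonic bases with Top2b on the opposite strand, and its counts were 2.23% to 5.02% of those of Top2b. Without knowledge of strand in the counting, the reads of both genes cannot be told apart there.

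The carriers Crabp1 and Crabp2 hand retinoic acid to its receptors or to degrading enzymes. Crabp1 had 6, 2 and 2 counts in treated heterozygous, 0, 0 and 0 in treated wild-type, 0, 4 and 0 in untreated heterozygous and 4, 0 and 6 counts in untreated wild-type tumours. It was left out of the test by the filter on low counts, and no fold is given since these counts are at or near the floor of 3. Crabp2 (chromosome 3, 87948666 to 87953376, plus strand) had 1.2, 0.787 and 6.95 CPM in treated heterozygous tumours and 2.16, 0.75 and 0.137 CPM in treated wild-type tumours. It had 0.544, 0.455 and 0.245 CPM in untreated heterozygous and 1.01, 0.911 and 0.796 CPM in untreated wild-type tumours.

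Every treated heterozygous tumour had more Crabp2 than every untreated heterozygous one. The log2 difference was 2.71 ± 0.95 (edgeR adjusted p = 0.593), and it was 1.19 without treated heterozygous mouse 3, which held 317 of the Crabp2 counts of that group, against 59 and 31 in the other mice. In wild-type mice gemcitabine minus untreated was 0.17 ± 0.90 (adjusted p = 0.971). Crabp2 ran against the duct and carcinoma list over the 12 libraries, with r of -0.73. Its r was 0.58 with the hepatocyte list and 0.49 with the adipocyte list. Single tumours stood out in both lists. Hepatocyte markers were highest, at 131 CPM, in treated wild-type mouse 1, which had 2.16 CPM of Crabp2. Adipocyte markers were highest, at 57.7 CPM, in treated heterozygous mouse 3, the tumour with the most Crabp2. No r was computed without these tumours. With the macrophage list r was 0.68, and 0.50 after removal of the group means. With gemcitabine in heterozygous mice 6 of 7 macrophage markers were higher without overlap, against 6.64% of all genes. They summed to 1017 to 1648 CPM in treated and 487 to 692 CPM in untreated heterozygous tumours, and their part in the Crabp2 difference was not tested.

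Read over all members, 0 of 8 tested genes passed in heterozygous against wild-type tumours under gemcitabine, where edgeR called 0.00416% of 24065 genes. At an unadjusted p under 0.05 there was 1 of 8, against 7.55% of all genes. Levels of the groups, scaled by TMM, did not overlap for 2 of 8 members, Aldh1a3 and Rarb, both lower in heterozygous tumours, against 13.7% of all genes in either direction (7.13% higher and 6.59% lower). DESeq2 called 0 members in this contrast and 1.05% of all genes to which it gave an adjusted p.

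Gemcitabine in heterozygous mice gave 0 of 7 members called by edgeR, against 0.00831% of all genes, and 1 of 7 at an unadjusted p under 0.05, against 7.9% of all genes. Crabp2 was higher without overlap, besides Lrat, where 12.7% of all genes did not overlap (6.64% higher and 6.08% lower). In wild-type mice gemcitabine gave 0 of 7 called (0% of all genes) and 2 of 7 at an unadjusted p under 0.05 (8.6% of all genes). Aldh1a3 was higher and Aldh1a2 lower without overlap, besides Lrat, and 13.7% of all genes did not overlap (6.52% higher and 7.18% lower). The difference of gemcitabine effects gave 0 of 7 called (0.00831% of all genes) and 2 of 7 at an unadjusted p under 0.05, Aldh1a2 and Aldh1a3, against 12.7% of all genes. DESeq2 called 0 of the 7 in each of these 3 comparisons, against 0.754% of all genes with its adjusted p for gemcitabine in heterozygous mice, 0.521% in wild-type mice and 2.95% for the difference of effects.

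The untreated genotype contrast, from which Lrat was picked, is given as a description for all members. Log2 differences of heterozygous minus wild-type were -1.65 for Aldh1a2, -1.12 for Crabp2, -0.77 for Rbp4, -0.51 for Aldh1a1, -0.35 for Rarb, -0.06 for Stra6 and 0.12 for Aldh1a3, beside the -6.43 of Lrat. Lrat, Aldh1a2 and Crabp2 were lower without overlap, in a contrast where edgeR called 0.0166% of all genes and 15.8% did not overlap (7.36% higher and 8.41% lower), with 12.2% at an unadjusted p under 0.05 and 2.94% called by DESeq2. Both gemcitabine comparisons share their untreated libraries with this contrast, so their values are not independent of it.

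**Figure D3:**
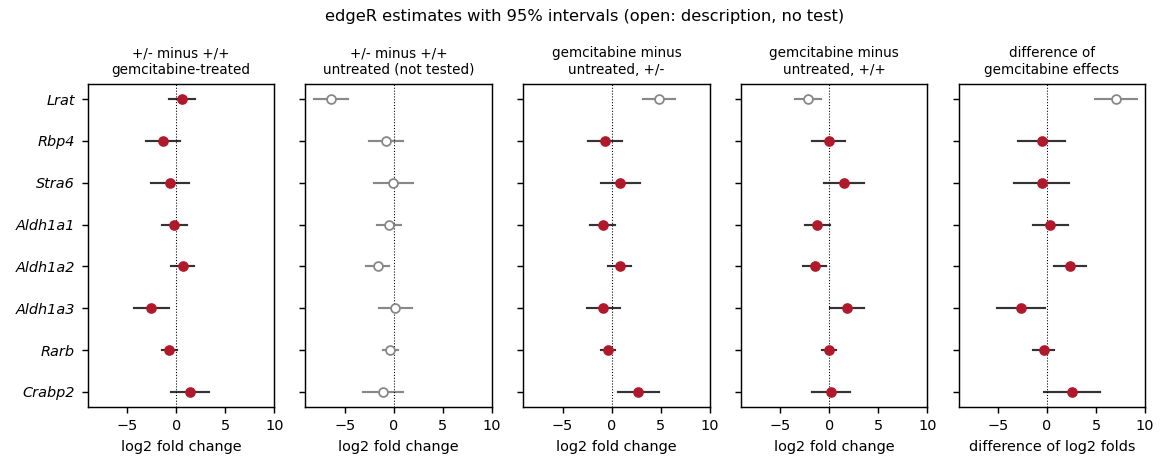
Log2 fold changes (edgeR, points) with 95% intervals (lines) of the 8 tested members in 5 comparisons of Cdh11 +/- and +/+ tumours; open points are descriptions with no test. Lrat stood at -6.43 without drug and at 0.59 under gemcitabine, where its interval crosses 0.

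Genes whose levels over the 12 libraries were most like those of Lrat were Dach1 (r = 0.904), Cep112 (0.897), Ywhab (0.896), Arl5a (0.887) and Gnai2 (0.885), where r is Pearson's on log2 CPM among genes of at least 1 CPM. Dach1 encodes a nuclear regulator, Ywhab a 14-3-3 protein, Arl5a a small GTPase of the Golgi and Gnai2 an inhibitory G protein subunit. Their low group was the untreated heterozygous one, which their choice by likeness to Lrat largely fixed. Dach1 had 1.48 to 1.84 CPM in treated heterozygous, 0.958 to 1.502 CPM in treated wild-type, 0.327 to 0.457 CPM in untreated heterozygous and 1.41 to 2.12 CPM in untreated wild-type tumours. After removal of the group means r was -0.36 for Dach1 and between 0.27 and 0.64 for the other 4 genes.

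The closest genes of Aldh1a2 were Oaz2 (r = 0.959), Tgfbr2, a TGF-beta receptor (0.942), and Pde8a (0.936), and here r stayed at 0.97, 0.91 and 0.87 after removal of the group means. Rbp4 was closest to Col27a1, a fibrillar collagen gene (0.94), Fads3 (0.907) and Eif2s2 (0.90). Stra6 was closest to Clic5 (0.929), Mtdh (0.903) and Tdrp (0.872), and Aldh1a1 to Pdk4, a pyruvate dehydrogenase kinase (0.939), Tmem140 (0.91) and Reps2 (0.893). Aldh1a3 was closest to Tmem63c (0.879), Vnn1 (0.874) and Cnnm4 (0.868), Rarb to Snx17 (0.927), Zxda (0.857) and Creb3l3 (0.827), and Crabp2 to Khdrbs3 (0.873), Myh11, a smooth muscle myosin (0.866), and Fpr1 (0.851). For the genes closest to these other members r likewise stayed high after removal of the group means, between 0.70 (Creb3l3) and 0.95 (Fads3). All are over 12 libraries and were picked as the highest r among all genes searched, so their height follows in part from the choice.

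The wider retinoid pathway was read from 6 lists of 71 genes, of which 61 were tested. In heterozygous against wild-type tumours under gemcitabine edgeR called 0 of 61, with 3 at an unadjusted p under 0.05, against 7.55% of all genes, and DESeq2 called 0. That 3 became 2 without treated wild-type mouse 3 and 7 without treated heterozygous mouse 1. Medians lay between -0.29 for the 17 redox enzymes and 0.19 for the 8 genes of ester storage and hydrolysis, beside -0.032 over all genes. The smallest p-values belonged to Meis2, a homeobox gene (-0.56 ± 0.22, edgeR adjusted p = 0.592), Ncoa3, a receptor coactivator (0.41 ± 0.17, adjusted p = 0.616), and Rlbp1, a retinal-binding protein (-2.50 ± 1.09, adjusted p = 0.648). Rlbp1 had 0, 4 and 7 counts in treated heterozygous and 20, 19 and 20 counts in treated wild-type tumours.

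Among other genes that the naming rule gives for this contrast, Lpl was at 0.97 ± 0.68, Plin2, a lipid droplet coat protein, at -0.55 ± 0.50, Rdh11 at -0.60 ± 0.28, Rdh14 at -0.52 ± 0.27 and Cyp26b1, a retinoic acid hydroxylase, at -1.21 ± 0.76. Cyp26c1 was at 0.19 ± 0.54 and Meis1 at -0.60 ± 0.43. The edgeR adjusted p of these 7 genes was between 0.672 and 0.978.

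With gemcitabine in heterozygous mice edgeR called 0 of 61 pathway genes, 5 had an unadjusted p under 0.05, against 7.9% of all genes, and DESeq2 called 0. Without treated heterozygous mouse 2 the 5 became 1, and without treated heterozygous mouse 1 they became 7. Meis2 (-0.53 ± 0.22), Meis1 (-1.06 ± 0.44), Ncoa3 (0.39 ± 0.17) and Rdh11 (-0.64 ± 0.28), a retinal reductase, were among these 5, with edgeR adjusted p from 0.605 to 0.617. The rule also gives Pnpla3 (-1.42 ± 0.66), Plin2 (0.95 ± 0.51), Rbp2 (-1.90 ± 0.87), Ttr (-2.03 ± 1.24), Rdh14 (-0.54 ± 0.27), Cyp26b1 (-0.995 ± 0.76) and Cyp26c1 (0.60 ± 0.54). The 17 redox enzymes had a median of -0.54, with 14 below 0, beside a median of -0.031 over all genes.

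In wild-type mice gemcitabine likewise gave 0 of 61 by edgeR, with 6 at an unadjusted p under 0.05, against 8.6% of all genes, and 0 by DESeq2. The 6 became 2 without treated wild-type mouse 3 and 10 without treated wild-type mouse 1. With all libraries the 6 were Rlbp1, Lrp1 (-0.92 ± 0.33) and Lrp2 (4.19 ± 1.77), which are uptake receptors, Pnpla3 (1.93 ± 0.68), Lpl (-1.92 ± 0.69) and Ncoa3 (-0.38 ± 0.17), with edgeR adjusted p from 0.559 to 0.577. Rlbp1 had 20, 19 and 20 counts in treated wild-type tumours and 2, 0 and 0 counts in untreated wild-type tumours, under the floor of 3 in each untreated library, so no fold is given. The rule adds Dhrs3 (-0.69 ± 0.32), a retinal reductase, Dhrs4 (0.51 ± 0.24), Cyp26a1 (-0.84 ± 1.15), Aldh1a7 (-0.60 ± 0.86), Hoxb4 (-0.91 ± 0.46) and Hoxa5 (-1.23 ± 0.71). Lrp2 had 66.2 CPM in treated wild-type mouse 1, the tumour with the highest intestinal markers, and 13.0 and 0.547 CPM in the others. The 12 retinoic acid responsive genes had a median of -0.59, beside 0.011 over all genes.

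The difference of gemcitabine effects called 0 of 61 with edgeR, with 7 at an unadjusted p under 0.05, against 12.7% of all genes, and 1 with DESeq2, against 2.95% of all genes with its adjusted p. The 7 became 3 without untreated wild-type mouse 2 and 8 without untreated wild-type mouse 1. The gene that DESeq2 called was Pnpla3, a lipase that cleaves retinyl esters in human hepatic stellate cells. It had 3.38, 3.605 and 1.99 CPM in treated heterozygous and 2.74, 2.29 and 7.96 CPM in treated wild-type tumours, then 12.4, 7.11 and 2.78 CPM in untreated heterozygous and 0.77, 2.22 and 0.64 CPM in untreated wild-type tumours. Pnpla3 and Lrat thus had opposite extremes among the untreated groups. The edgeR difference of effects for Pnpla3 was -3.35 ± 0.95 (adjusted p = 0.252), and DESeq2 gave -3.33 (adjusted p = 0.0236).

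The other genes named for that difference were Ncoa3 (0.77 ± 0.23), Meis2 (-0.78 ± 0.31), Hoxb4 (1.60 ± 0.65), Rdh11 (-0.93 ± 0.39), Lrp1 (1.051 ± 0.46) and Rbp2 (-2.72 ± 1.22), with edgeR adjusted p from 0.259 to 0.386. Lpl (2.08 ± 0.96), Rdh14 (-0.79 ± 0.38), Rara (0.66 ± 0.38), Cyp26b1 (-1.004 ± 1.06) and Cyp26a1 (0.94 ± 1.61) had larger p-values.

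Without drug, as a description, heterozygous minus wild-type was 2.67 ± 0.69 for Pnpla3 and 0.64 ± 0.28 for Lipe, both lipases, and -0.89 ± 0.33 for Lrp1. The receptor gene Rara was at -0.72 ± 0.27, Ncoa3 at -0.36 ± 0.17, Hoxa4 at -1.45 ± 0.49 and Hoxb4 at -1.19 ± 0.46. Rbp2 was at 1.23 ± 0.86, Rdh13 at 0.51 ± 0.21, Bco2, a carotenoid oxygenase, at 1.42 ± 0.68, Cyp26a1 at -0.76 ± 1.14 and Cyp26c1 at -0.20 ± 0.55. Of the 12 responsive genes 8 were below 0, with a median of -0.62, beside 0.044 over all genes and -1.40 for the 12 activated fibroblast genes, all of which were below 0. The summed list of the responsive genes was 658 to 768 CPM in treated heterozygous, 550 to 849 CPM in treated wild-type, 502 to 1033 CPM in untreated heterozygous and 643 to 782 CPM in untreated wild-type tumours, with all groups overlapping.

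**Figure D4:**
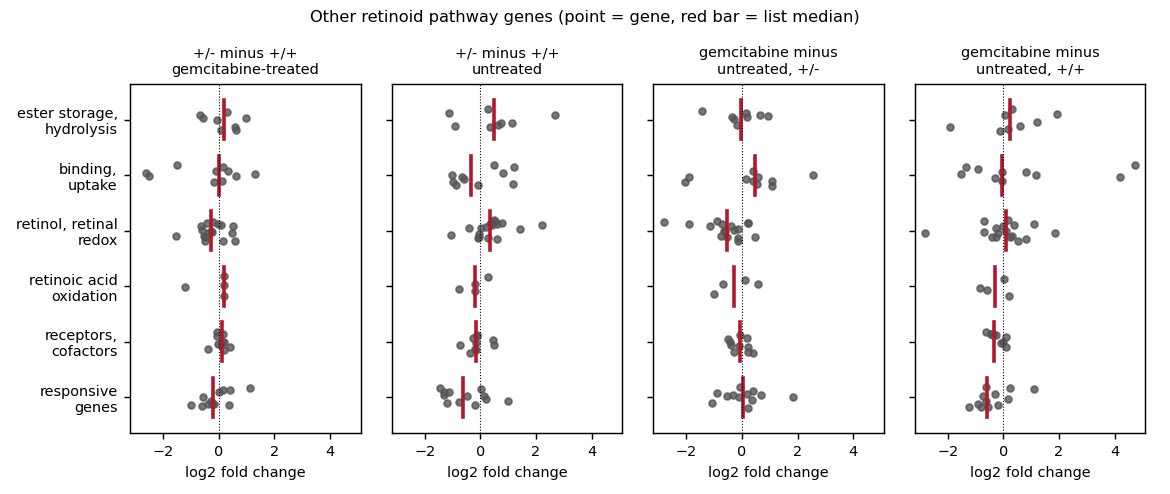
Log2 fold changes of the 61 tested genes of 6 other retinoid lists in 4 comparisons of Cdh11 +/- and +/+ tumours; points are genes and red bars list medians. Most points lie near 0, and the redox enzymes have a median of -0.54 for gemcitabine minus untreated in heterozygous mice.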

How the data were processed

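RNA from snap-frozen pancreatic tumours was sequenced as stranded total RNA after removal of ribosomal RNA, per the labels' protocols. The authors deposited expected counts per Ensembl gene, made with RSEM on GRCm38 per the submitters' processing notes; the deposited values are whole numbers. The sources used here do not give the aligner, the annotation release or the use of strand. Each library is 1 mouse, grouped by its title. Symbols came from GENCODE M21 and matched 52489 of 52636 gene IDs.

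The test was the quasi-likelihood test of edgeR 4.0.16 (R 4.3.3), robust, on all 12 libraries and 24065 genes left by filterByExpr, with TMM factors of 0.897 to 1.09, no covariate, and a biological coefficient of variation of 46.4%. Adjusted p-values are Benjamini-Hochberg over all genes tested, two-sided, at a threshold of 0.05. Log2 values have their SE after ±. DESeq2 1.42.0, other filters, a replicate block, a Y-linked covariate and the omission of single libraries were alternatives. The test was also run on simulated counts with planted changes, and the share of such changes it misses is not reported here. Copies were sought with blastn 2.17.0 at 95% identity over 50% of a transcript. Pathway genes were named where they passed, or else as the 2 smallest p-values per list; a few genes this gives are not reported here. The members and lists were chosen with earlier results of these data known. The floor of 3 counts covers counting error only.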

Additional observations from a re-analysis of the deposited data

Results flagged for a closer look

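Lrat moved in opposite directions with gemcitabine in the 2 genotypes, which marked it for a closer look. In heterozygous mice all 3 treated tumours (1.79, 2.77 and 4.71 CPM) lay above all 3 untreated tumours (0, 0.165 and 0.123 CPM). In wild-type mice all 3 treated tumours (1.502, 1.65 and 2.35 CPM) lay below all 3 untreated tumours (7.28, 9.40 and 8.82 CPM). The difference of the gemcitabine effects was 7.01 ± 0.97 on the log2 scale. It was not tested, because the untreated libraries led to the choice of the gene. That choice largely fixes both directions.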

How the results depend on the processing

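No member passed the threshold in any tested comparison under any alternative run, and the smallest adjusted p was 0.0554. Of 412 tested member values under the alternatives, 394 kept their direction and 18 turned. With a covariate for the Y-linked genes, heterozygous minus wild-type under gemcitabine turned to -0.34 for Lrat, 0.54 for Stra6 and 0.15 for Aldh1a1. Gemcitabine in wild-type mice turned to 0.11 for Rarb, and the difference of effects to 0.47 for Stra6. The cause was not tested. Among treated mice this covariate follows genotype, so it was set largely by the untreated libraries. With single libraries left out, heterozygous minus wild-type under gemcitabine ranged from -0.59 to 0.74 for Aldh1a1 and from -0.11 to 2.53 for Crabp2. Gemcitabine in wild-type mice ranged from -0.94 to 0.68 for Crabp2, -0.21 to 0.12 for Rarb and -0.49 to 0.83 for Rbp4, and in heterozygous mice from -0.36 to 1.75 for Stra6. The difference of effects ranged from -0.078 to 1.24 for Aldh1a1, -0.62 to 0.028 for Rarb and -1.83 to 0.29 for Stra6. DESeq2 called 1 pathway gene without drug and 1 in the difference of effects, Pnpla3 in both, against 0 with edgeR.

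Over all genes edgeR called 4 without drug, 1 under gemcitabine, 2 and 0 for gemcitabine in heterozygous and wild-type mice and 2 for the difference of effects; DESeq2 called 703, 237, 170, 120 and 652. The same counts were 10, 1, 2, 0 and 3 with no filter, and 2, 12, 2 and 0 in fits on only the libraries compared, which give no difference of effects. With single libraries left out they ranged from 2 to 12, 0 to 3, 2 to 9, 0 to 0 and 2 to 7. Same-numbered libraries correlated between -0.247 and 0.173 in their deviations from the group means, over 0.1 in 4 of 18 pairs. Differently numbered libraries lay between -0.333 and 0.236, over 0.1 in 11 of 36 pairs. The numbers thus gave no sign of pairing, which does not show that the mice were unpaired. With the replicate block, Rbp4 with gemcitabine in wild-type mice turned to 0.067, the count of genes under gemcitabine was 0 and no member call changed. With 3 mice per group the number of mice limits the precision of every value.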
